A study of Mus musculus with 30 samples.

Results

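Mouse embryonic fibroblasts (MEFs) were compared with the induced pluripotent stem cells (iPSCs) obtained after delivery of 4 transcription factors, gene by gene across the transcriptome. The comparison used 4 of the 30 RNA-seq libraries of the series, 2 from day 0 MEFs and 2 from iPSCs. Of 55401 gene identifiers in the table, 14761 had at least 1 FPKM (fragments scaled to transcript length and to the mapped fragments of the library) in 2 or more of its 10 libraries and were tested. Both groups carried the genotype label 129XOG2, and the protocol text calls the fibroblasts OG2 MEFs of passages 1 to 3. The day 0 MEFs were grown in DMEM with 10% fetal bovine serum. For reprogramming, such fibroblasts received lentiviruses carrying Oct4, Sox2, Klf4 and c-Myc, with doxycycline at 2 µg/ml. The iPSCs were kept on feeder cells with N2 and B27 supplements, LIF at 1000 units/mL, 3 µM CHIR99021 (a GSK3 inhibitor) and 0.2 µM PD0325901 (a MEK inhibitor). The labels do not say whether the iPSCs were a single clone or whether the 2 libraries of a group came from separate cultures, so the p-values measure the spread between these libraries only. Medium, feeder cells and cell state changed together and cannot be told apart here.

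Fibroblasts are adherent connective tissue cells that secrete and anchor to extracellular matrix and divide slowly with a long first gap phase. Mouse pluripotent stem cells divide fast, spend much of their cycle in DNA synthesis, hold an open chromatin with few lineage marks, and depend on LIF signalling through Stat3. In culture they take up glucose at a high rate and use threonine as a source of glycine and one-carbon units.

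Signal of a differentiated cell in a bulk library can come from fewer cells or from less RNA per cell, and these cannot be told apart. The summed level of 20 fibroblast markers was 8045 and 7638 FPKM in the day 0 libraries and 128 and 137 FPKM in the iPSC libraries, where 1 of the 20 was listed at 0 in both. The summed level of 13 naive pluripotency markers, leaving out the delivered factors Pou5f1, Sox2 and Klf4, went the other way, from 29.3 and 26.7 FPKM to 2924 and 3442 FPKM. How much of the fibroblast RNA left in the iPSC libraries came from feeder cells was not tested. Summed macrophage markers were at 31 and 34.5 FPKM at day 0 and at 54 and 51 FPKM in iPSCs, although of the 9 tested only 2 were higher and 4 were lower (2 and 7 at an unadjusted p under 0.05 by limma), with a median log2 change of -0.98. Summed endothelial markers were at 8.6 and 8.24 against 44.7 and 55.2 FPKM, with 2 of the 4 tested higher, 1 lower and 2 of the listed markers at 0 in both iPSC libraries. Their part in the results below was not tested. Replicates correlated with r = 0.9950 at day 0 and 0.9826 in iPSCs on the log2(FPKM + 1) scale across genes, and 34 and 254 genes respectively differed more than 2-fold between the 2 libraries.

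A gene was called when limma's moderated test gave a Benjamini-Hochberg adjusted p under 0.05 and the change on the log2(FPKM + 1) scale was at least 2-fold. By this rule 6127 of the 14761 genes differed (41.5%), 3270 of them higher (22.2%) and 2857 lower (19.4%) in iPSCs. Since so many genes moved, the called counts of each class below are read against those shares. Counts at an unadjusted p under 0.05 by limma, above and below, drop the 2-fold limit as well. Their share over all genes is not given, so they show direction only and have no background beside them. The rule that named genes required that the libraries of the groups not overlap, so their separation is no result of its own. Of the genes tested, 1049 passed the filter only through the iPSC libraries and 120 only through the day 0 libraries. The filter favoured 1 direction for such genes: 892 of the 1049 were called higher and 80 of the 120 lower. Without the 1049 genes, 2378 of the 3270 increases remained. The median change over all genes was 0.14 on the log2 scale. Rescaling each library to TPM moved that median to -0.03, and the changes of single genes shift with it. On the TPM scale 3035 of the 14761 genes were higher and 3810 lower. With a pseudocount of 5 (5 in place of 1 added to the FPKM) 1671 were higher and 1509 lower. Class counts given below at those settings are to be read against these. Beside well-known markers of the 2 cell states, the 12 largest rises included Tdh, Tdgf1 and Upp1 and the 12 largest falls Igf2, H19 and Igfbp5. In the plot of class shares the longest bars to the right belong to DNA replication and those to the left to Hox, collagen processing and limb development genes.

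**Figure D1:**
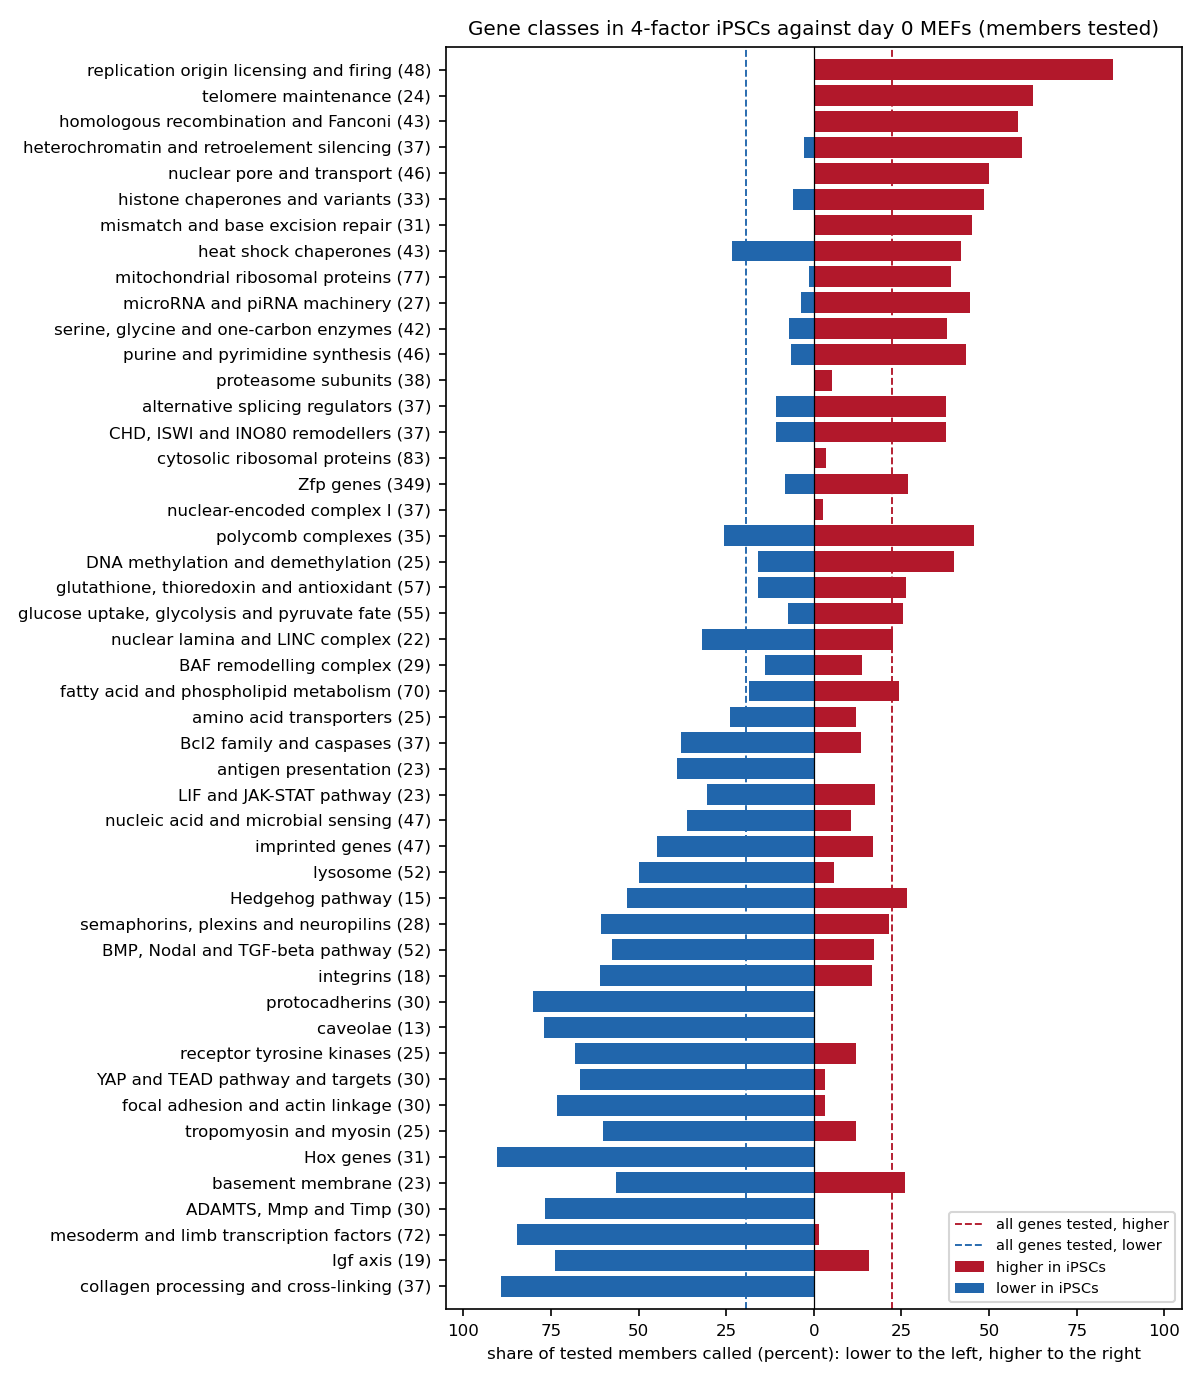
Share of tested members called higher (bars to the right, percent) or lower (bars to the left, percent) in iPSCs for 48 gene classes, ordered by median log2 change, with the number tested in brackets. Dashed lines mark the shares over all 14761 genes, 22.2% higher and 19.4% lower; 41 of 48 replication genes and 33 of 37 collagen processing genes lie at the 2 ends.

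DNA replication genes rose as a block. Of 48 genes for origin licensing and firing, 41 were higher and 0 lower, with a median log2 change of 1.51, and at an unadjusted p under 0.05 the limma fit gave 46 higher and 0 lower. The change was moderate in size: 14 of the 41 reached 4-fold. All 6 subunits of the replicative helicase moved together, as Mcm5 shows with 31.6 and 30.4 FPKM at day 0 and 118 and 152 FPKM in iPSCs (log2 change 2.08 ± 0.13 (SE), adjusted p = 9.65e-07). Mcm10, which helps start unwinding, was at 7.11 and 6.81 against 62.2 and 60.7 FPKM (2.97 ± 0.18, adjusted p = 6.27e-07). Cdt1, the loader of the helicase, stood at 16.2 in both day 0 libraries and at 80.3 and 93.6 FPKM in iPSCs.

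E2F transcription factors are the known regulators of the helicase genes, which is why their upstream sequences are shown. The letters TTCCCGC or TTGGCGC, on either strand, lay within 250 bases upstream of the start in 10 of the 38 replication genes with a RefSeq promoter (26.3%), against 11.8% of the 10348 tested genes with one and 6.45% of all 27025 promoters. Of the 10 genes, 8 were higher and 2 were not called, a share no larger than the 41 of 48 in the whole list. Over all tested genes with a promoter, the letters lay in 13.2% of those called higher and 10.1% of those called lower. The 180 bases upstream of 3 helicase genes follow, 5′ to 3′ on the gene's strand (RefSeq, GRCm38.p6), with the matches in capitals. They are chr8:75109329-75109508 (plus strand) for Mcm5, chr1:128359706-128359885 (minus strand) for Mcm6 and chr5:138171884-138172063 (minus strand) for Mcm7.
Mcm5: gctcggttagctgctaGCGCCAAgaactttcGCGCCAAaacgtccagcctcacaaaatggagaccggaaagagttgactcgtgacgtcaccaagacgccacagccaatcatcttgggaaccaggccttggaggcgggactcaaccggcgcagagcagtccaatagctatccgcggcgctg
Mcm6: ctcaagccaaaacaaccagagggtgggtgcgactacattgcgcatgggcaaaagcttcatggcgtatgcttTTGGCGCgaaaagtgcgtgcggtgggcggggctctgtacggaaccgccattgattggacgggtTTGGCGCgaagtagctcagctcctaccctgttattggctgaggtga
Mcm7: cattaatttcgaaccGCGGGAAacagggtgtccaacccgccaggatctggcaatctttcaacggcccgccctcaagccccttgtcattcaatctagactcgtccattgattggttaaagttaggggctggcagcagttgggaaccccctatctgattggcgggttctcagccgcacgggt
The matches begin 164 and 149 bases before the start in Mcm5, 109 and 46 in Mcm6 and 165 in Mcm7. The letters were chosen after matches of 8 motifs had been looked at, and a match is not evidence of binding.

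Genes of DNA repair also rose, Msh6, Ung and Parp1 among them. Msh6, a mismatch recognition protein, was at 13.2 and 12.6 FPKM at day 0 and at 178 and 191 FPKM in iPSCs (log2 change 3.73 ± 0.13, adjusted p = 2.82e-08). Ung, which removes uracil from DNA, went from 4.77 and 4.61 to 58.5 and 77.6 FPKM, and the strand-break sensor Parp1 from 28.2 and 25.1 to 185 and 203 FPKM. Of 31 mismatch and base excision repair genes, 14 rose and 0 fell (24 and 3 at an unadjusted p under 0.05 by limma). Of 43 homologous recombination and Fanconi genes, 25 rose and 0 fell (34 and 2 unadjusted). At 4-fold, 6 and 11 of these remained called.

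Among 24 telomere genes 15 rose and 0 fell, and 22 and 0 did at an unadjusted p under 0.05 by limma. Terf1, a shelterin protein that binds telomeric repeats, was at 6 and 7.54 FPKM at day 0 and at 53.4 and 49.2 FPKM in iPSCs (2.76 ± 0.13, adjusted p = 1.25e-07). Its paralogue Terf2 was at 8.3 and 9.76 against 12.6 and 14.1 FPKM and was not called (0.51 ± 0.14). Tert, the catalytic subunit of telomerase, rose from 1.57 and 1.28 to 4.86 and 4.35 FPKM, and Dkc1, a telomerase RNA binding protein, from 18.7 and 19.1 to 138 and 128 FPKM. Changes of 4-fold or more were found in 6 of the 24, and 3 of its members were tested only through the iPSC libraries.

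Genes that silence retroelements and pack heterochromatin rose in 22 of 37 cases and fell in 1, with a median log2 change of 1.14. Trim28, the corepressor that KRAB zinc finger proteins recruit, was already abundant at 134 and 130 FPKM in MEFs and reached 663 and 701 FPKM in iPSCs (2.36 ± 0.11, adjusted p = 1.38e-07). Zfp57, a KRAB protein that guards imprinted methylation, stood at 24.3 and 24.1 against 252 and 237 FPKM. Setdb1, the methyltransferase that Trim28 brings in, was at 11.7 ± 0.69 FPKM (SD, n = 2) against 25.8 and 22.7 FPKM and fell just short of the 2-fold limit (0.99 ± 0.12). Hells, a remodeller needed for DNA methylation of repeats, rose from 10 and 10.2 to 79.5 and 55.1 FPKM. Hat1, which acetylates new histone H4, went from 26.3 and 26.8 to 264 and 230 FPKM. It was among 16 of 33 histone chaperone and variant genes that rose, while 2 fell.

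A local block of increases lay in a run of KRAB-type zinc finger genes on chromosome 4, chosen for description after its values were seen. Between the start of Zfp990 and the end of Zfp984 (chr4:145510759-147809788, GENCODE M21, GRCm38), 38 genes were tested, 36 were higher and 0 lower, and the median log2 change was 3.10. All 20 protein-coding genes of the run were higher, at a median of 5.21, and so were 14 of 16 pseudogenes. Mean levels of the 17 genes with a Zfp symbol were 0 to 3.96 FPKM at day 0 and 13.7 to 87.1 FPKM in iPSCs. Zfp978 was at 0.0204 and 0 FPKM at day 0 and at 107 and 67 FPKM in iPSCs. Zfp990 was at 0.317 and 0.502 against 67.7 and 39.4 FPKM, so iPSC replicate 1 was the higher of the pair in both genes. Of the 38 genes, 25 passed the filter only through the iPSC libraries, which favours increases, and the 13 others were all higher. Of the 20 protein-coding genes, 13 passed the filter only through the iPSC libraries, and the 7 others were all higher. Zfp genes elsewhere in the genome were higher in 77 of 332 cases (23.2%), close to the 22.2% of all genes. The genes tested within 2 Mb on either side were higher in 21 of 57 cases (36.8%). Of these 57, 14 passed the filter only through the iPSC libraries, and 7 of the 43 others were higher. The next zinc finger gene beyond the run, Zfp933, was at 1.41 and 1.48 against 1.59 and 1.34 FPKM. Members of the run are close copies of each other, so reads shared between them may be split among them and single values are uncertain. In the plot of the run the protein-coding genes lie above the 2-fold line along its whole length.

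**Figure D2:**
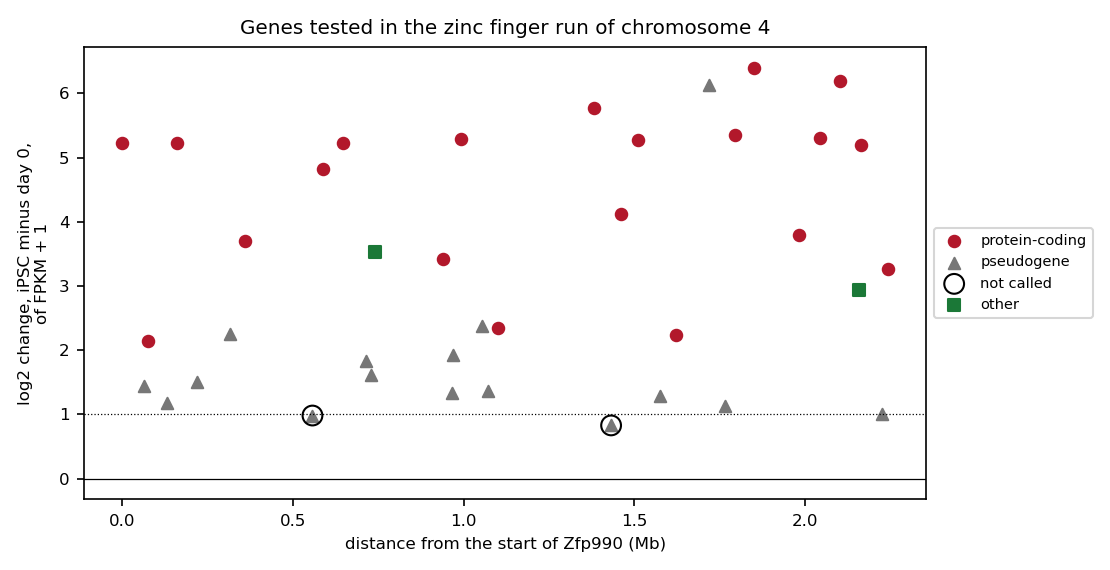
Log2 change (iPSC minus day 0, of FPKM + 1) of the 38 genes tested in the zinc finger run of chromosome 4, against distance from the start of Zfp990 (Mb). Circles are protein-coding genes, triangles pseudogenes and squares other genes; ringed points were not called, the dotted line marks 2-fold, and all 20 protein-coding genes lie above it.

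Polycomb genes went both ways, with more increases: 16 of 35 rose (45.7%, against 22.2% of all genes) and 9 fell (25.7%, against 19.4%). Polycomb repressive complexes 1 and 2 place ubiquitin on histone H2A and methyl groups on lysine 27 of H3, and their subunits come in alternative versions. Cbx7, the reader subunit of complex 1, was at 0.544 and 0.322 FPKM in MEFs and at 50.5 and 52.3 FPKM in iPSCs (5.20 ± 0.23, adjusted p = 9.95e-08). Its relative Cbx6 fell from 31.7 and 28 to 11.3 and 15.1 FPKM, though without iPSC replicate 1 the change of Cbx6 was -0.94 and not called. Phc1 rose from 10.5 and 9.87 to 103 and 93.2 FPKM while Phc2 fell from 49.6 and 47.5 to 9.68 and 14.5 FPKM. Bmi1, a ring finger partner in complex 1, fell from 12.7 in both libraries to 4.18 and 3.59 FPKM.

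In complex 2 the core subunit Eed rose from 16.5 and 16.3 to 117 and 120 FPKM. The accessory proteins Mtf2 (8.71 and 8.61 against 138 and 98.9 FPKM), Epop (2.82 and 3.18 against 82.5 and 145 FPKM) and Jarid2 (4.24 and 3.55 against 43.5 and 38.4 FPKM) rose as well. The Mtf2 paralogues Phf19 and Phf1 fell, with log2 changes of -1.36 ± 0.13 and -1.45 ± 0.21. All 8 changes of at least 4-fold in the polycomb list were increases, and with a pseudocount of 5 the number that fell was 2.

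Among 25 DNA methylation genes 10 were higher (40%) and 4 lower (16%, under the 19.4% of all genes). At 4-fold 8 were higher and 1 lower, and with a pseudocount of 5 these counts were the same. Dnmt3l, the catalytically inactive partner of the de novo enzymes, was at 0.199 and 0.197 FPKM at day 0 and at 47.9 and 61.6 FPKM in iPSCs (5.53 ± 0.17, adjusted p = 1.45e-08). Dnmt3b rose from 0.601 and 1.04 to 25.6 and 26.9 FPKM, and Uhrf1, which guides maintenance methylation, from 31.3 and 26.8 to 141 and 152 FPKM. The maintenance enzyme Dnmt1 itself was at 37.5 and 33.7 against 65.3 and 63.5 FPKM, below the 2-fold limit. Of the TET dioxygenases that oxidise methylcytosine, Tet1 and Tet2 rose, to 26.7 and 17.3 and to 18.2 and 10.7 FPKM from levels under 2 FPKM, whereas Tet3 fell from 4.99 and 3.92 to 0.736 and 0.47 FPKM.

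Chromatin remodellers of the BAF family were near balance, with 4 of 29 higher and 4 lower. The ATPase Smarca2 fell from 12.3 and 10.4 to 0.549 and 0.664 FPKM (-2.94 ± 0.14, adjusted p = 1.48e-07), whereas the alternative ATPase Smarca4 was at 43.9 and 41.7 against 55 and 58.5 FPKM and was not called. Smarcc2 fell from 33.3 and 30.9 to 6.97 and 6.76 FPKM, and Smarcd1 rose from 9.1 and 9.22 to 48.5 and 52.7 FPKM. Chd3 and Chd4 are alternative ATPases of the NuRD deacetylase complex. Chd3 fell from 69 and 57.5 to 2.91 and 2.84 FPKM, while Chd4 was at 59 and 52.8 against 87.6 and 80.8 FPKM and was not called (0.58 ± 0.17). Over the CHD, ISWI and INO80 list 14 of 37 rose and 4 fell.

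Lamina and LINC genes went both ways, 5 of 22 higher (22.7%, near the 22.2% of all genes) and 7 lower, with 0 and 3 at 4-fold. Lmna, which encodes the A-type lamins of stiff, differentiated nuclei, fell from 334 FPKM in both day 0 libraries to 8.16 and 14.8 FPKM (-4.80 ± 0.23, adjusted p = 1.65e-07). Lmnb1, a B-type lamin, rose from 45 and 42.7 to 158 and 189 FPKM, and the lamin B receptor Lbr from 23.5 and 22.2 to 82.6 and 75.4 FPKM. Sun2 and Syne3, which couple the nuclear envelope to the cytoskeleton, fell to 3.16 and 4.25 FPKM and to 0.339 and 0.147 FPKM. Nuclear pore and transport genes rose in 23 of 46 cases and fell in 0, with 37 and 2 at an unadjusted p under 0.05 by limma. Of the 23 changes 2 reached 4-fold, and on the TPM scale the count was 14. Nup210, a membrane pore protein, was at 0.0993 and 0.0837 FPKM against 20.5 and 17.2 FPKM.

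The plot of related genes places 12 pairs that moved in opposite directions side by side.

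**Figure D3:**
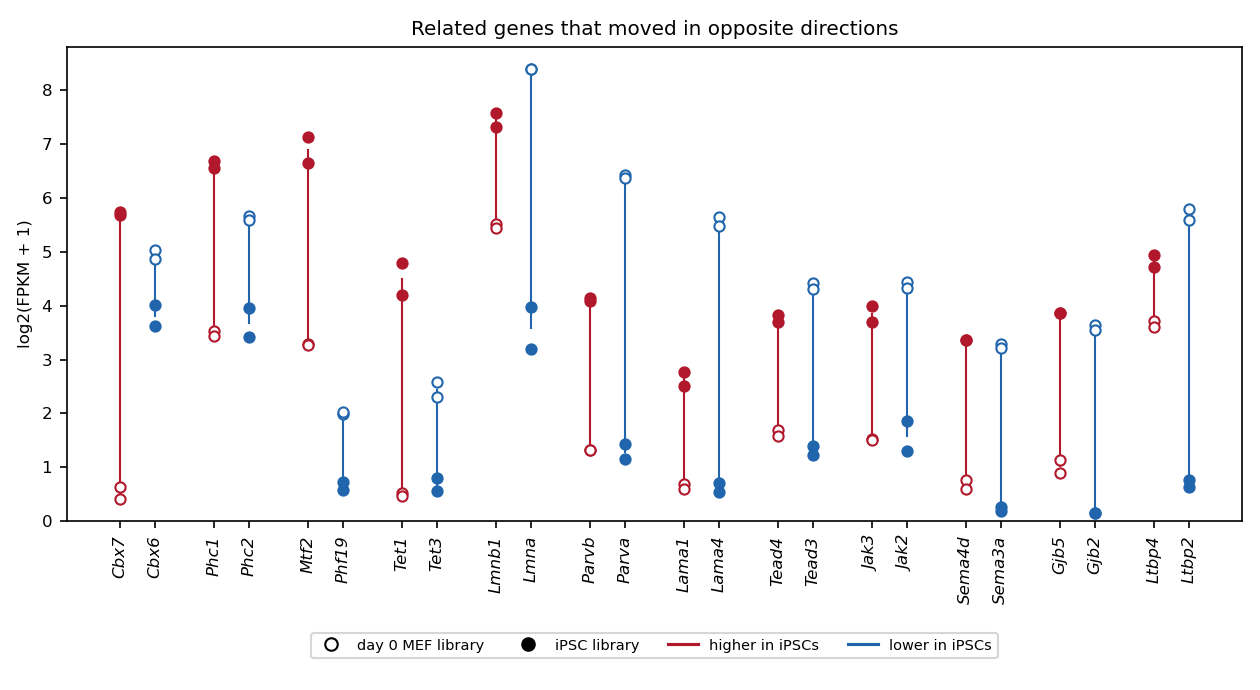
Levels (log2(FPKM + 1), vertical axis) of 12 pairs of related genes in each library, with open circles for the 2 day 0 MEF libraries, filled circles for the 2 iPSC libraries and a line joining the group means. The pairs were chosen after their values were seen; the first gene of each pair (red) rose and the second (blue) fell, as for Lmnb1 and Lmna.

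Glucose metabolism moved through a few genes and not as a pathway: 14 of 55 genes rose and 4 fell (25.5% and 7.27%), near the background for the increases. Slc2a3, a high-affinity glucose transporter, was at 4.06 and 3.81 FPKM at day 0 and at 217 and 213 FPKM in iPSCs (5.45 ± 0.12, adjusted p = 3.65e-09). The common transporter Slc2a1 was at 38 and 34.1 against 64.4 and 73.7 FPKM and stayed under 2-fold. Hk2, which traps glucose in the cell, rose from 7.73 and 7.12 to 49.1 and 53.1 FPKM, and Pfkp, a phosphofructokinase, from 10.2 and 9.55 to 48.6 and 50.9 FPKM. Ldhb rose from 15.4 and 14.5 to 128 and 150 FPKM, while Ldha, the other lactate dehydrogenase subunit, was at 476 and 501 against 331 and 423 FPKM and was not called. Pdk1, which shuts pyruvate out of mitochondria, rose from 5.39 and 4.68 to 33.3 and 29.3 FPKM. On the TPM scale 12 members of the list were called lower in place of 4, while over all 14761 genes 3810 were, in place of 2857.

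In one-carbon metabolism the genes around glycine rose. Tdh, threonine dehydrogenase, was listed at 0 in both MEF libraries and at 322 and 359 FPKM in iPSCs. The glycine cleavage enzymes followed: Gldc was at 0.117 and 0.0978 against 58.3 and 63.6 FPKM (5.80 ± 0.13, adjusted p = 3.98e-09) and Amt at 1.42 and 1.07 against 35.4 and 40.4 FPKM. The cytosolic folate enzymes Shmt1 (4.26 and 4.66 against 50.8 and 57.3 FPKM) and Mthfd1 (18 and 17.3 against 103 and 124 FPKM) rose. Their mitochondrial counterparts Shmt2 and Mthfd2, and the serine synthesis enzymes Phgdh and Psat1, were not called, and for Shmt2 the libraries of the groups overlapped (97.4 and 91.3 against 80.3 and 108 FPKM). Aldh1l2, a mitochondrial folate dehydrogenase, fell from 34.6 and 31.6 to 0.392 and 0.381 FPKM. In the whole list 16 of 42 genes rose and 3 fell.

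Nucleotide synthesis genes rose in 20 of 46 cases and fell in 3, and Upp1, which splits uridine for salvage, went from 0.359 and 0.492 to 212 and 209 FPKM (7.21 ± 0.12, adjusted p = 2.08e-09). Of 57 antioxidant genes 15 rose and 9 fell (26.3% and 15.8%), near the shares of all genes. Gsta4, a glutathione transferase that clears lipid aldehydes, rose from 10.5 and 9.12 to 212 and 244 FPKM, while Gpx8, a peroxidase of the endoplasmic reticulum, fell from 67.3 and 68.6 to 2.67 and 2.31 FPKM. Of 70 fatty acid and phospholipid genes 17 rose and 13 fell, shares close to those of all genes.

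Genes of the ribosome, the proteasome and complex I moved by small steps, rarely called except in the mitochondrial ribosome. The 2 iPSC libraries differed in the size of the step. Summed cytosolic ribosomal protein genes were at 35487 and 38415 FPKM at day 0 and at 44822 and 61829 FPKM in iPSCs. Summed nuclear-encoded complex I genes were at 1282 and 1389 against 1558 and 2255 FPKM. Of 83 cytosolic ribosomal protein genes 3 were called higher and 0 lower, yet their median log2 change was 0.52 (0.31 on the TPM scale) and 36 were higher at an unadjusted p under 0.05 by limma, against 0 lower. Mitochondrial ribosomal protein genes were called more often, 30 of 77 higher (39%, against 22.2% of all genes) and 1 lower at a median of 0.81. None of the 30 reached 4-fold, and 19 were called on the TPM scale. Of 38 proteasome subunit genes 2 rose and 0 fell (26 and 2 unadjusted), and of 37 nuclear-encoded complex I genes 1 rose and 0 fell (18 and 0 unadjusted, limma). The genes that did rise included variants known mostly from germ cells. Rpl10l, a retrogene copy of an X-linked ribosomal protein gene, was listed at 0 in MEFs and at 68 and 89.1 FPKM in iPSCs, and Psma8, a testis proteasome subunit, rose from 0.159 and 0.123 to 13 and 12.3 FPKM. Rpl10l shares sequence with its parent gene, so its level is uncertain.

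RNA-binding regulators of splicing changed in 18 of 37 cases, not far from the 41.5% of all genes. Of the 37, 14 rose (37.8%, against 22.2% of all genes) and 4 fell (10.8%, against 19.4%). On the TPM scale 10 rose and 4 fell. Mbnl1 and Mbnl2, which favour splice forms of differentiated cells, fell from 36.5 and 34.4 to 3.65 and 2.71 FPKM and from 67.8 and 68.4 to 5.41 and 3.91 FPKM (-3.13 ± 0.16 and -3.62 ± 0.15). Celf2 fell from 11.8 and 8.42 to 1.15 and 1.05 FPKM. Rbpms2 rose from 6.01 and 6.91 to 90.6 and 103 FPKM and Rbm38, a target of p53, from 3.93 and 4.21 to 44.5 and 50.8 FPKM. Of 27 microRNA and piRNA machinery genes 12 rose and 1 fell, but 5 of them were tested only through iPSC libraries. Lin28a, which blocks let-7 maturation, was listed at 0 at day 0 and at 84.2 and 93.6 FPKM in iPSCs.

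Heat shock chaperones went both ways. Hsp90aa1, the inducible cytosolic HSP90, was at 234 and 240 FPKM at day 0 and at 1919 and 1467 FPKM in iPSCs (2.82 ± 0.18, adjusted p = 9.05e-07). Cryab, a small chaperone of the actin and desmin cytoskeleton, fell from 50.5 and 52.3 to 3.86 and 4.47 FPKM, whereas another small heat shock protein, Hspb1, rose from 95 and 94.4 to 408 and 513 FPKM. Over the list 18 of 43 rose and 10 fell, with 2 and 5 at 4-fold.

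Lysosomal genes fell in 26 of 52 cases and rose in 3, against 19.4% lower over all genes. Lysosomes digest proteins, glycans and lipids, and Tfeb and Mitf are transcription factors known to switch lysosomal genes on through the E-box CACGTG. Ctsk, a collagen-cutting protease, fell from 28 and 28.7 to 0.426 and 0.344 FPKM (-4.41 ± 0.14, adjusted p = 1.56e-08). The protease Ctsd fell from 235 and 234 to 78.1 and 94.2 FPKM and the membrane protein Lamp1 from 296 and 301 to 140 and 126 FPKM. Sgsh and Naglu, which degrade heparan sulfate, fell from 7.05 and 5.6 to 0.25 and 0.339 FPKM and from 7.51 and 7.06 to 0.782 and 0.802 FPKM. Tfeb rose from 3.15 and 2.36 to 19 and 24.9 FPKM and Mitf from 1.78 and 1.41 to 6.21 and 5.05 FPKM. Manba, a mannosidase, was the third member to rise, from 3.34 and 3.76 to 44.1 and 48.2 FPKM. At 4-fold 9 genes were lower and 2 higher.

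The letters CACGTG lay within 250 bases upstream of the start in 14 of 42 lysosomal genes with a promoter (33.3%), against 9.94% of tested genes and 6.86% of all promoters. Of the 14, 8 fell and 6 were not called, beside 26 of 52 that fell in the whole list. Over all tested genes with a promoter, the letters lay in 10.3% of those called higher and 9.08% of those called lower. Whether Tfeb or Mitf acted on these genes was not tested. The promoters of 3 genes that fell are shown as examples that carry the letters (180 bases upstream, 5′ to 3′ on the gene's strand, matches in capitals, GRCm38.p6). They lie at chr8:13158981-13159160 (plus) for Lamp1, chr11:119355511-119355690 (minus) for Sgsh and chr11:101069914-101070093 (plus) for Naglu.
Lamp1: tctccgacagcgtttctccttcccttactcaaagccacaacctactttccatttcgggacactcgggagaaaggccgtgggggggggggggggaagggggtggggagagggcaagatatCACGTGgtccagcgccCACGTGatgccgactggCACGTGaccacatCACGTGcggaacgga
Sgsh: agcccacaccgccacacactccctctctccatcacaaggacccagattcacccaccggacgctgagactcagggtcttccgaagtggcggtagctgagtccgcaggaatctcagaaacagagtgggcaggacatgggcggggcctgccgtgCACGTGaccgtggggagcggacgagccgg
Naglu: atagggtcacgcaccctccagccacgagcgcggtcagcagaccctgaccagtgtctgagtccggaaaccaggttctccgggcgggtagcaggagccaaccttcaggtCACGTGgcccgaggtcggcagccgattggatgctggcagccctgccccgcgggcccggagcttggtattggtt
Lamp1 holds 4 matches, beginning 61, 45, 28 and 15 bases before the start. Sgsh and Naglu hold 1 each, at 29 and 73 bases.

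Genes that process and anchor collagen fell nearly as a whole. Of 37 collagen processing and cross-linking genes 33 fell and 0 rose (35 and 0 at an unadjusted p under 0.05 by limma), with a median log2 change of -2.77. Serpinh1, the collagen chaperone, was at 1019 and 1004 FPKM at day 0 and at 36.9 and 51.7 FPKM in iPSCs (-4.50 ± 0.22, adjusted p = 1.69e-07). Lox, which cross-links collagen and elastin, fell from 472 and 435 to 17.9 and 12.6 FPKM, and the prolyl hydroxylase subunit P4ha3 from 37.9 and 34.8 to 0.838 and 0.504 FPKM. Plod2, a lysyl hydroxylase, kept more of its level, at 31.2 and 32.1 against 14.8 and 11.5 FPKM. Secreted proteases of the ADAMTS and Mmp families and their Timp inhibitors fell in 23 of 30 cases and rose in 0 (28 and 2 unadjusted, limma), among them Adamts2, a procollagen protease (12.3 and 12.4 against 0.139 and 0.188 FPKM), and Timp3 (129 and 117 against 9.24 and 7.99 FPKM). Since 20 of the 50 listed members of those families were not tested, the count covers the ones these cells express.

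Genes for cell anchorage fell as well. Integrin beta 1, Itgb1, the common partner of matrix receptors, fell from 407 and 386 to 46.7 and 42.1 FPKM (-3.13 ± 0.12, adjusted p = 3.83e-08). Itga6, the laminin-binding alpha subunit, rose from 18.5 and 16.4 to 50.5 and 39 FPKM, and over the family 11 of 18 fell and 3 rose. Of 30 focal adhesion genes 22 fell and 1 rose. Ilk, the scaffold kinase beneath integrins, fell from 104 and 111 to 6.5 and 4.8 FPKM, and its partner Parva from 85.2 and 82 to 1.22 and 1.7 FPKM. The single member that rose was Parvb, the paralogue of Parva, from 1.49 and 1.51 to 16.6 and 16.1 FPKM (2.79 ± 0.16, adjusted p = 5.09e-07). Tropomyosin and myosin genes fell in 15 of 25 cases and rose in 3. Myl9, the light chain of contractile myosin, fell from 181 and 197 to 1.47 and 1.72 FPKM. Tpm2 fell from 172 and 179 to 4.78 and 7.35 FPKM.

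Caveolae are flask-shaped membrane pits that buffer tension. Of 13 caveolar genes 10 fell and 0 rose (10 and 0 unadjusted, limma). Cav1 went from 227 and 231 to 3.79 and 2.87 FPKM, Cavin1 from 189 and 182 to 8.14 and 9.66 FPKM and Cavin2 from 49.7 and 48.4 to 1.58 and 1.55 FPKM. Of 23 basement membrane genes 13 fell (56.5%, against 19.4% of all genes) and 6 rose (26.1%, against 22.2%), with a median log2 change of -2.09. Among the laminins the chains went both ways. Lama4 fell from 49.3 and 43.5 to 0.63 and 0.457 FPKM and Lama2 from 3.86 and 3.46 to 0.118 and 0.0381 FPKM. Lama1, the chain of the earliest embryonic basement membrane, rose from 0.607 and 0.506 to 5.81 and 4.66 FPKM and Lama5 from 8.12 and 6.5 to 18.1 and 17.4 FPKM. With a pseudocount of 5 only 1 of the 6 basement membrane genes that rose was called, while 12 genes of the list were called lower.

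Contacts between cells changed as well. Among the 8 gap junction genes tested, Gjb5 (0.869 and 1.21 against 13.6 FPKM in both) rose while Gja1 (77.3 and 76.2 against 22.7 and 17.6 FPKM) and Gjb2 (11.5 and 10.7 against 0.109 and 0.117 FPKM) fell. Cldn6, a tight junction protein of early epithelia, was listed at 0 in MEFs and at 4.78 and 4.93 FPKM in iPSCs, and 4 of the 6 claudins tested rose. Of 30 protocadherins 24 fell and 0 rose (26 and 2 unadjusted, limma), at low levels for most, since 6 were called with a pseudocount of 5. Clustered protocadherins share exons, so values of single members are uncertain.

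Signalling through YAP and TEAD reports tension and cell spreading. Of 30 genes that are components or targets of the pathway 20 fell and 1 rose. Ccn1 was at 345 and 327 FPKM at day 0 and at 11.3 and 12.6 FPKM in iPSCs (-4.70 ± 0.19, adjusted p = 5.91e-08), Ccn2 at 256 and 245 against 20.2 and 21.2 FPKM, and the cofactor Vgll3 at 18.9 and 18.3 against 0.829 and 0.591 FPKM. Yap1 itself was not called, at 56.6 and 52.7 against 41.6 and 40.5 FPKM. RNAs of the DNA-binding partners went both ways. Tead4 rose from 2.22 and 2 to 13.2 and 12 FPKM, whereas Tead3 fell from 20.3 and 18.7 to 1.35 and 1.62 FPKM. Tead1 fell from 35.8 and 29.7 to 16.3 and 11.8 FPKM, a level near that of Tead4 in iPSCs. Without iPSC replicate 2 the change of Tead1 was -0.96 and was not called.

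The TEAD letters ACATTCC or GCATTCC, on either strand, lay within 250 bases upstream of the start in 11 of 23 genes of that list with a promoter (47.8%), against 6.15% of tested genes and 6.84% of all promoters. Of the 11, 9 fell and 2 were not called, beside 20 of 30 that fell in the whole list. Over all tested genes with a promoter, the letters lay in 5.77% of those called higher and 8.14% of those called lower. The list holds known targets, so its share of 47.8% describes how targets are chosen as much as these data. Promoters of 3 targets that fell follow (180 bases upstream, 5′ to 3′ on the gene's strand, matches in capitals, GRCm38.p6), at chr3:145649986-145650165 (minus) for Ccn1, chr16:65815009-65815188 (plus) for Vgll3 and chr9:102717624-102717803 (plus) for Amotl2.
Ccn1: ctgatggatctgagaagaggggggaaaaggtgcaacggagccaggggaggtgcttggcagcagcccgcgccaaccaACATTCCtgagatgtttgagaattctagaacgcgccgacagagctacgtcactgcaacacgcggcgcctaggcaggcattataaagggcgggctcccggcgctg
Vgll3: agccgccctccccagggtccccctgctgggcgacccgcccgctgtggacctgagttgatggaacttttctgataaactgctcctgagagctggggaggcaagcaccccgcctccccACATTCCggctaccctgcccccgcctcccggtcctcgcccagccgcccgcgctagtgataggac
Amotl2: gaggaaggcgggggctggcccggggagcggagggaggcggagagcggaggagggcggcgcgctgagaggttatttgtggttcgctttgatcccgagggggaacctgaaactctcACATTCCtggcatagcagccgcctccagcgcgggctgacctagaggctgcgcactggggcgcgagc
The match begins 104 bases before the start in Ccn1, 64 in Vgll3 and 66 in Amotl2, and Amotl2 fell from 70.6 and 63.2 to 24.3 and 23.4 FPKM.

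In the LIF pathway the receptors and kinases that MEFs express at high levels fell, although iPSCs grow in LIF. Lifr, the LIF receptor, overlapped between groups at 5.18 and 4.72 against 6.41 and 4.38 FPKM. Its co-receptor Il6st fell from 61.5 and 53.5 to 13 and 9.27 FPKM and the related receptor Osmr from 32.7 and 32.1 to 0.751 and 0.402 FPKM (-4.41 ± 0.13, adjusted p = 1.25e-08). Jak1 fell to 13.6 and 11.1 FPKM from 56.5 and 52.9, Jak2 to 2.64 and 1.48 FPKM from 20.7 and 19, and Stat3 to 22.3 FPKM in both libraries from 57.1 and 50.7. Jak3 rose from 1.89 and 1.86 to 11.9 and 15 FPKM, and the feedback inhibitor Socs3, a Stat3 target, from 16 and 16.9 to 37.6 and 56.9 FPKM. In all 4 of 23 members rose and 7 fell, and on the TPM scale 11 fell.

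Hedgehog genes fell in 8 of 15 cases and rose in 4 (26.7%, near the 22.2% of all genes). The co-receptors Gas1 (137 and 131 against 0.822 and 1.17 FPKM, -6.09 ± 0.12, adjusted p = 3.31e-09), Boc (18.6 and 17.6 against 0.684 and 0.615 FPKM) and Cdon (21.3 and 18.4 against 2.19 and 1.54 FPKM) fell. So did the signal transducer Smo, from 44.6 and 39.5 to 4.49 and 4.97 FPKM, and Gli3, from 13.2 and 11.2 to 1.57 and 1.16 FPKM. The receptor Ptch1 (3.02 and 2.56 against 9.13 and 6.77 FPKM) and the transcription factor Gli1 (0.819 and 0.402 against 3.64 and 3.46 FPKM), both also known targets of the pathway, rose, as did Gli2, whose call was lost without day 0 replicate 2 (0.98). These increases were at low levels: Gli1 was tested only through the iPSC libraries, and with a pseudocount of 5 none of the 4 members of the list that rose was called.

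The TGF-beta superfamily exchanged ligands. Tdgf1, the Nodal co-receptor, and Gdf3 were listed at 0 in MEFs and at 346 and 331 and at 46.9 and 52.9 FPKM in iPSCs. Nodal itself went from 0.0191 and 0 to 16.6 and 27 FPKM, and its antagonist Lefty1 from 0.89 and 0.564 to 6.87 and 12.8 FPKM. The ligands Tgfb1, Tgfb2 and Tgfb3 fell, the last from 96.1 and 87.4 to 0.177 and 0.128 FPKM (-6.33 ± 0.19, adjusted p = 1.41e-08). Ltbp2, of the family that stores TGF-beta in matrix, fell from 54.2 and 47.2 to 0.695 and 0.546 FPKM, whereas Ltbp4 rose from 11.7 ± 0.65 FPKM (SD, n = 2) to 25.5 and 29.8 FPKM. The BMP targets Id1, Id2 and Id3 fell, with log2 changes of -2.41 ± 0.32, -3.33 ± 0.11 and -2.88 ± 0.18. In total 9 of 52 members rose (17.3%, against 22.2% of all genes) and 30 fell. Of the 52, 5 were tested only through the iPSC libraries, and 4 of the 9 increases lay outside those 5.

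Receptor tyrosine kinases fell in 17 of 25 cases and rose in 3. Pdgfra (42.6 and 39 against 0.247 and 0.158 FPKM), Pdgfrb (99.8 and 85.2 against 1.04 and 1.21 FPKM) and Axl (162 and 152 against 2.78 and 2.91 FPKM) fell. Kit, the stem cell factor receptor, rose from 0.0666 and 0.135 to 45.5 and 35.7 FPKM (5.23 ± 0.17, adjusted p = 1.93e-08). Guidance genes of the semaphorin, plexin and neuropilin families fell in 17 of 28 cases and rose in 6. The secreted Sema3a and Sema3c fell with their receptors Nrp1 (42.3 and 36.4 against 0.32 and 0.236 FPKM) and Nrp2 (37.3 and 34.3 against 1.54 and 1.24 FPKM). The membrane-bound Sema4d and Sema4b rose, from 0.693 and 0.521 to 9.24 and 9.31 FPKM and from 4.06 and 3.69 to 21.5 and 22.7 FPKM.

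The insulin-like growth factor axis fell in 14 of 19 cases and rose in 3. Igf2, an imprinted fetal growth factor, was at 705 and 653 FPKM at day 0 and at 0.193 and 0.0164 FPKM in iPSCs (-9.27 ± 0.30, adjusted p = 1.95e-08), and the neighbouring imprinted RNA H19 at 1382 and 1404 against 1.74 and 2.03 FPKM. Igfbp5 fell from 196 and 167 to 0.125 FPKM in both libraries. The mRNA-binding protein Igf2bp1 rose from 7.33 and 6.4 to 49.2 and 45.6 FPKM. Of 47 imprinted genes tested 21 fell and 8 rose. Dlk1 fell from 110 and 103 to 0.878 and 0.711 FPKM, and Meg3 of the same cluster from 123 and 113 to 44.3 and 45.3 FPKM, so that the iPSC libraries kept Meg3 but little Dlk1. Mest (93.8 and 92.8 against 18.8 and 15.8 FPKM) and Peg3 (47.7 and 39.8 against 4.05 and 2.69 FPKM) fell too.

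Genes of nucleic acid and microbial sensing fell in 17 of 47 cases and rose in 5, though with a pseudocount of 5 these counts were 7 and 1. Tmem173, the adaptor STING, fell from 18.8 and 22.1 to 1.73 and 1.78 FPKM (-2.96 ± 0.21, adjusted p = 2.34e-06). Aim2, a DNA sensor that builds inflammasomes, rose from 0.125 and 0.181 to 33 and 25 FPKM. Of 23 antigen presentation genes 9 fell and 0 rose (12 and 4 unadjusted, limma). B2m, the light chain of class I molecules, fell from 192 and 215 to 29 and 28.2 FPKM, whereas the heavy chains H2-K1 (11.3 and 12.8 against 15 and 15.8 FPKM) and H2-D1 (12.3 and 11.6 against 6.73 and 10.2 FPKM) were not called. H2 genes are near-identical to each other and reads may be split among them.

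Cell death genes fell in 14 of 37 cases and rose in 5, with 4 and 0 at 4-fold. In the extrinsic route the receptors Tnfrsf1a (67.4 and 67.2 against 3.41 and 4.97 FPKM) and Fas (4.32 and 3.41 against 0.698 and 0.42 FPKM) fell, and Casp8, their initiator caspase, fell from 12.9 and 15.8 to 0.583 and 0.718 FPKM (-3.21 ± 0.13, adjusted p = 6.79e-08). The necroptosis genes Ripk3 and Mlkl fell, with log2 changes of -2.30 ± 0.12 and -1.95 ± 0.15. Bid, which links both death routes, rose from 7.83 and 8.38 to 31.8 and 33.4 FPKM, and the survival factor Mcl1 from 52.4 and 50.1 to 114 and 113 FPKM, the latter not called on the TPM scale (0.93). Among cell cycle regulators Ccne1, the cyclin of the step into DNA synthesis, rose from 18.5 and 18.3 to 103 and 107 FPKM, while Ccnd1 was at 56.1 and 53.3 against 41.8 and 43.1 FPKM and was not called. The cyclin and Cdk inhibitor list as a whole had 7 of 30 higher and 6 lower.

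Most positional and mesodermal transcription factors fell. Of 31 Hox genes tested 28 fell and 0 rose (29 and 2 unadjusted, limma), with levels such as 4.54 and 5.07 FPKM against 0.104 and 0.0757 FPKM for Hoxa9. Of these 9 were called with a pseudocount of 5. Of 72 mesoderm and limb factors 61 fell and 1 rose, and with a pseudocount of 5 the number that fell was 35. Among those that fell were Prrx1 (118 and 116 against 0.909 and 0.802 FPKM, -5.99 ± 0.10, adjusted p = 2.08e-09) and Twist2 (53.9 and 38.5 against 0.215 and 0.207 FPKM). Wnt ligands fell in 7 of 9 cases and rose in 0 (8 and 1 unadjusted, limma), with Wnt5a from 27.8 and 25.7 to 0.546 and 0.555 FPKM. Klf and Sp factors other than Klf4 went up in 11 of 19 cases and down in 2. In the Myc family Mycn rose from 0.71 and 0.97 to 32.6 and 39.4 FPKM. Transgene and endogenous reads of Pou5f1, Sox2, Klf4 and Myc cannot be told apart in this table, so no values of these 4 are given; the counts over all genes include them.

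Sex-linked RNAs moved as well. Xist, the RNA of the inactive X chromosome, was at 14 ± 2.6 FPKM (SD, n = 2) at day 0 and at 0.279 and 0.0875 FPKM in iPSCs. Of the Y-linked genes, Eif2s3y rose from 5.12 and 4.78 to 29 and 28 FPKM, Ddx3y from 4.97 and 5.26 to 16.7 and 12.9 FPKM and Uty from 1.17 and 1.13 to 7.79 and 4.64 FPKM. Kdm5d was at 1.13 and 0.775 against 0.0822 and 0.0768 FPKM, a lower level than at day 0 that did not reach the 2-fold limit on the log2(FPKM + 1) scale (-0.85 ± 0.17). On the TPM scale the change of Kdm5d was -1.59 and passed it. The labels name no sex for either group.

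The days between, which share the day 0 libraries with the iPSC comparison, were read as levels only. Mean levels at days 2, 4 and 7 were 1.21, 18.7 and 6.94 FPKM for Tdh, 4.14, 14.9 and 15.7 FPKM for Slc2a3 and 2.7, 2.67 and 7.79 FPKM for Upp1, all far below the iPSC levels. Pdk1 was at 6.2, 29.3 and 37.2 FPKM, so its day 4 and day 7 means were near the iPSC libraries. Msh6 was at 14.2, 20 and 11 FPKM and Mcm5 at 41.4, 24.5 and 13.4 FPKM. Msh6 lay above its day 0 libraries at days 2 and 4 and Mcm5 at day 2, and both were below them at day 7. Zfp978 stayed under 0.1 FPKM at all 3 days, with means of 0.00514, 0.0503 and 0.0254 FPKM. Of the falling genes, Aldh1l2 (6.28, 2.51 and 7.55 FPKM), Igfbp5 (66.3, 17.9 and 14 FPKM) and Myl9 (81.1, 18.5 and 52.4 FPKM) were below day 0 from day 2. Cav1 (249, 233 and 311 FPKM), Gas1 (84.2, 117 and 183 FPKM) and B2m (212, 318 and 399 FPKM) were still at fibroblast levels or above at day 7. These cultures mix cells at different stages, and their plot shows where each of 16 genes stood.

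**Figure D4:**
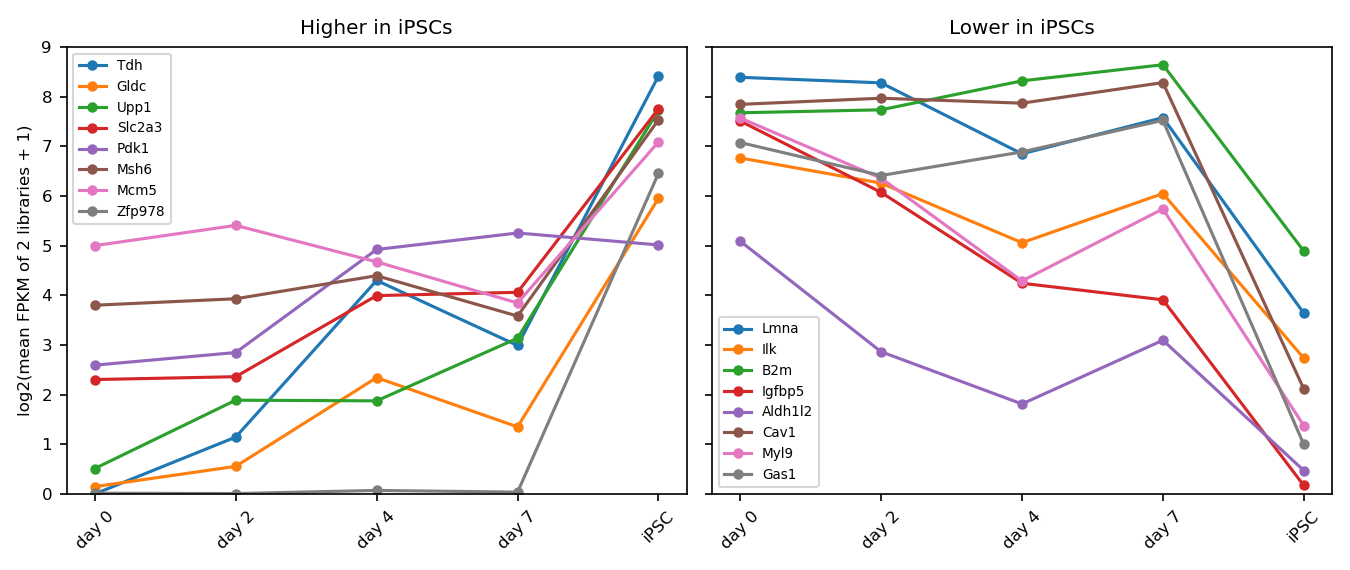
Mean level of 2 libraries (log2(FPKM + 1), vertical axis) at day 0, day 2, day 4, day 7 and in iPSCs for 8 genes higher and 8 genes lower in iPSCs, chosen after their values were seen. Tdh, Gldc and Zfp978 remain far below the iPSC level through day 7, and Cav1, Gas1 and B2m remain high.

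A second arm of the series, CF1 MEFs made into iPSCs with chemicals and kept in the same iPSC medium, gave a separate comparison of 2 against 2 libraries. There 6248 of 15442 genes tested differed (40.5%), 3252 higher (21.1%) and 2996 lower (19.4%). The difference between the 2 changes was tested as a contrast in a joint fit of both tables, in which 1758 of 16205 genes were called (10.8%), 800 with the higher value (4.94%) and 958 with the lower value (5.91%) in the 4-factor arm. That contrast mixes the way of reprogramming with the mouse stock and with the table, which cannot be told apart. In the CF1 arm 36 of 48 replication genes and 21 of 37 heterochromatin genes were higher. Of 36 polycomb genes 17 were higher there and 3 lower, beside 16 and 9 of 35 in the 4-factor arm. All 20 protein-coding genes of the zinc finger run were higher in the CF1 arm too.

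Several classes held more differences with the lower value in the 4-factor arm than the 5.91% of all genes, counted here over the members in the joint fit. These were 9 of 28 amino acid transporters, 12 of 59 antioxidant genes, 12 of 50 imprinted genes and 12 of 83 cytosolic ribosomal protein genes. Of the ribosomal protein genes 30 of 83 were called higher in the CF1 arm. Collagen processing genes had the lower value in 11 of 37 cases, and fibroblast markers in 15 of 19, all 19 of which were called lower in iPSCs of both arms. The part of fibroblast content in the matrix differences was not tested. The higher value, found in 4.94% of all genes, was held by 12 of 55 BMP, Nodal and TGF-beta genes and by 10 of 13 macrophage markers. In the CF1 arm 12 of those 13 markers fell. Several enzymes changed in opposite directions. Pck2, the mitochondrial enzyme that turns oxaloacetate into phosphoenolpyruvate, fell from 62.4 and 65.7 to 19.3 and 24.4 FPKM here, while in the CF1 arm its means were 16.5 and 63.1 FPKM (difference -3.39, adjusted p = 9.36e-08). Nnmt, which methylates nicotinamide, fell from 9.92 and 12.4 to 1.58 and 0.951 FPKM against CF1 means of 2.52 at day 0 and 6.84 FPKM in iPSCs. Mest and Meg3 fell here and rose there, with CF1 means of 8.79 and 22.2 FPKM and of 49.3 and 128 FPKM. Psat1 and Mthfd2, not called here, had differences of -1.10 and -1.33. Part of these differences lay at day 0: Igfbp5 stood at 196 and 167 FPKM in these MEFs and at a mean of 7.48 FPKM in CF1 MEFs. The plot of both arms shows most named genes near the line of equal change.

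**Figure D5:**
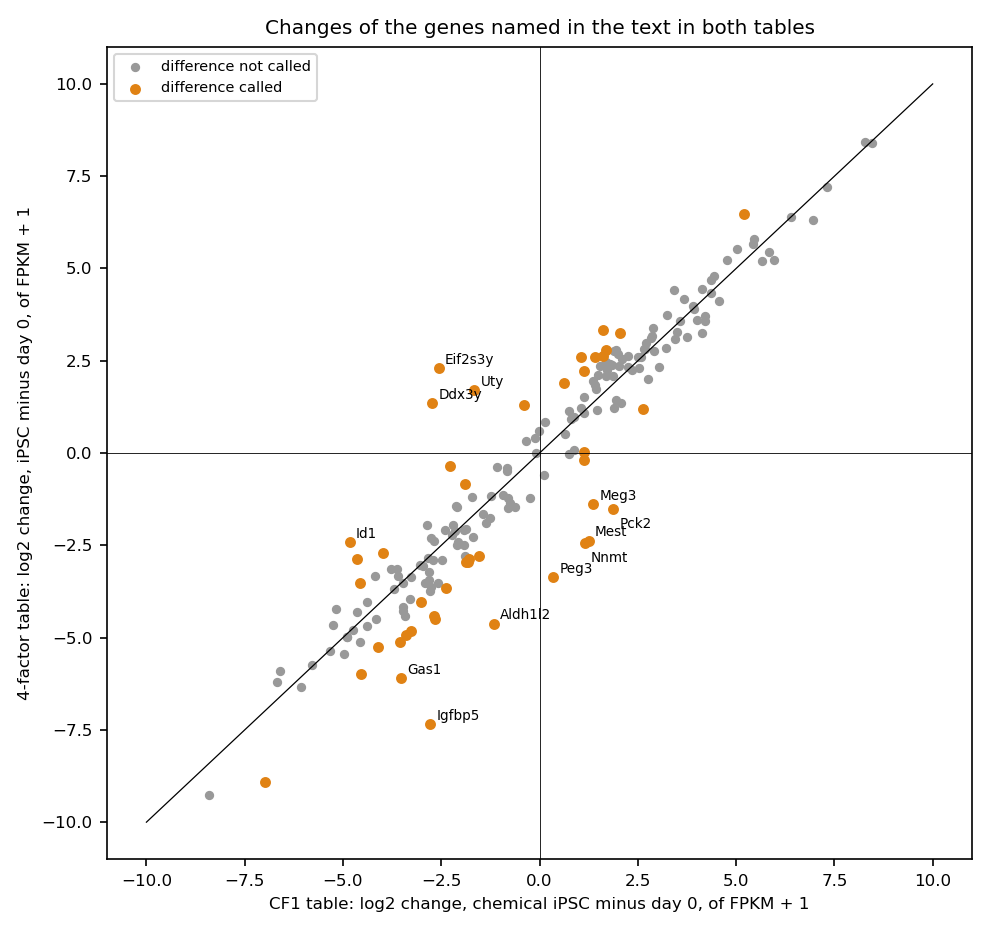
Log2 change (iPSC minus day 0, of FPKM + 1) of the genes named in the text in the 4-factor table (vertical axis) against the CF1 table (horizontal axis). Orange points are genes whose difference between the tables was called, labelled where it was at least 4-fold, and the diagonal marks equal change; Igfbp5, Peg3, Mest, Nnmt, Aldh1l2 and Pck2 lie far below it and Eif2s3y, Ddx3y and Uty far above.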

How the data were processed

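RNA-seq libraries of 150-base reads were processed by the submitters, whose processing notes name fastp 0.20.1, HISAT2 2.2.1 and StringTie 2.0. The authors deposited FPKM per gene and library, 1 table for the 4-factor time course and 1 for the CF1 arm. The annotation release and the use of strand are not given in the sources used here. Ensembl identifiers were matched to symbols through GENCODE M21 (99.5% matched). FPKM keep no read numbers, so depth is unknown and its precision is judged from the spread of replicates only; library sums of FPKM were 363338 to 434627. Of the columns in the table, 0 had no sample.

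From the FPKM, log2(FPKM + 1) was fitted with limma 3.58.1 in R 4.3.3 over the 10 libraries of the table, with 1 coefficient for each of 5 groups (5 residual degrees of freedom), trended empirical Bayes moderation and Benjamini-Hochberg adjustment over 14761 genes. A fold change on that scale understates the change of low genes. The fit was tested on simulated data in which few genes changed and those that did were well above 0 at day 0. That test does not cover low genes or the large share of changed genes found here. The difference between arms was a contrast in a joint fit of both tables. A call needed an adjusted p under 0.05 and at least 2-fold. Each class was described by its counts beside those of all genes. Some genes are not reported here.

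The comparison and the 83 gene lists (11 of them markers) were chosen with earlier results of these data known. Genes were named by a rule, from the 12 largest rises and 12 largest falls and up to 4 called members of each list (at most 2 in each direction where both occur) with no overlap and a mean of at least 5 FPKM in the higher group. Of 194 genes named, 97 lie outside it and were added after their values were seen, as partners, paralogues or members of the same step. The zinc finger run, the motifs, the sex-linked genes and the genes of the figures were chosen after their values were seen. Alternatives were another pseudocount, filter, scaling, fold limit or set of libraries, a replicate block and leaving out each library. Promoters came from RefSeq (GRCm38.p6), with 180 bases shown and 250 searched. Figures used Python 3.11.15, pandas 2.3.3, numpy 2.4.6 and matplotlib 3.10.9.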

Additional observations from a re-analysis of the deposited data

Results flagged for a closer look

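The genes below were picked out because their change from day 0 to iPSC differed between the 4-factor arm and the CF1 chemical arm in the joint limma fit, with an adjusted p under 0.05 and a difference of at least 2-fold. Each value is the change in the 4-factor arm minus the change in the CF1 arm, on the log2(FPKM + 1) scale, over 2 libraries in each of 4 groups. Method, mouse stock and table cannot be told apart in it, and over all genes 10.8% were called. Groups of 2 libraries are too small for a test of single outlying libraries.

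Imprinted and growth genes had some of the larger differences. Mest (-3.62) and Meg3 (-2.74) fell in the 4-factor arm and rose in the other, Peg3 differed by -3.71 and H19 by -1.95, and the growth factor binding protein Igfbp5 differed by -4.55.

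Metabolic enzymes differed in both directions. Aldh1l2 (-3.46), Nnmt (-3.59), Pck2 (-3.39), Mthfd2 (-1.33) and Psat1 (-1.10) had the lower value in the 4-factor arm. Shmt1 (1.71), Mthfd1 (1.19), Hk2 (1.01) and Pfkp (1.08) had the higher value there.

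Y-linked genes rose in the 4-factor arm and fell in the CF1 arm, with differences of 4.87 for Eif2s3y, 4.1 for Ddx3y and 3.37 for Uty. Kdm5d was lower in iPSCs of both arms and differed by 1.04, and Xist differed by -1.28.

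Matrix and adhesion genes with the lower value in the 4-factor arm were Lama4 (-1.53), Lama5 (-1.45), Lox (-1.55) and Serpinh1 (-1.85), while Itga6 (1.71), Parvb (1.11) and Ccn2 (1.02) had the higher value.

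Signalling genes with the lower value were Gas1 (-2.56), Cdon (-1.09), Jak2 (-1.26), Osmr (-1.73), Pdgfra (-1.57) and Tmem173 (-1.13). Those with the higher value were Id1 (2.42), Id3 (1.76), Lefty1 (1.54), Tgfb1 (1.28) and the death gene Bid (1.26).

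Among regulators of transcription, RNA and the cell cycle, Prrx1 (-1.44), Twist2 (-1.15), Chd3 (-1.04) and Smarca2 (-1.06) had the lower value. Ccnd1 (1.93), Lin28a (1.28) and Rbm38 (1.20) had the higher value in the 4-factor arm.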

How the results depend on the processing

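The counts of 3270 genes higher and 2857 lower depended on how low levels and size were weighed: with a pseudocount of 5 they were 1671 and 1509, and with a limit of 4-fold 933 and 1215. The 8 other settings for all libraries kept both counts within 1.5 times, with 3035 and 3810 on the TPM scale. On that scale the balance turned: more genes were lower than higher, and 44.3% of the calls were increases. Leaving out 1 library at a time gave 3223 to 3359 higher and 2800 to 2915 lower, where the lone library of a group is assumed to vary like the others. Replicate numbers are not said to pair libraries, and the correlation of their deviations was 0.134 over 2 pairs, so the replicate block, with 3271 higher and 2855 lower, is only a check. Of 176 called genes named in the text, 155 kept their call with a pseudocount of 5 and 0 changed direction under any setting. Changes of sign occurred in 4 genes that were not called and near 0. These were Lifr (-0.10 on the TPM scale, -0.14 to 0.32 without 1 library), Psat1 (-0.19 on the TPM scale), Shmt2 (0.00 with equal library medians, -0.23 to 0.20 without 1 library) and Zfp933 (-0.15 on the TPM scale, -0.06 to 0.08 without 1 library). Setdb1 (1.04 with a pseudocount of 0.1) and Slc2a1 (1.01 without iPSC replicate 1) passed the 2-fold limit under those settings. FPKM carry no read numbers, so the depth behind low values is unknown.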

Other observations

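Gene classes by annotation moved unequally. Of 240 lincRNAs tested 102 were higher (42.5%) and 31 lower, but 78 of them were tested only through the iPSC libraries. Of 97 small nucleolar RNAs 42 were higher (43.3%) and 0 lower by limma, at a median log2 change of 0.81, although FPKM of such short genes are poorly defined. Processed pseudogenes were higher in 173 of 897 cases and lower in 25, and their reads can belong to their parent genes.

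Median changes of protein-coding genes by chromosome lay between -0.15 and 0.32 in the 4-factor arm, leaving out the Y chromosome with 6 genes tested. Chromosome 15 had a median of 0.06 there and of 0.49 in the CF1 arm, where the medians of the other chromosomes except Y lay between -0.15 and 0.20. The median difference between the arms was -0.35 on chromosome 15, and between -0.05 and 0.15 on the others except Y. The cause of the chromosome 15 value was not tested.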
